A study of Rattus norvegicus with 12 samples.

Results

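Endothelial cells line the aorta, and in a ring of aorta embedded in gel they are the source of the sprouts that grow outward. The genes described here are 39 named genes that mark endothelial cells or act in sprouting. Their list was drawn up with earlier results of these data known, and they were found in the annotation by symbol. Of the 39 genes, 33 were measured among the 14324 genes of the array, and 6 (Pecam1, Vwf, Eng, Ptprb, Mmrn2 and Ecscr) are not analysed here. They were grouped by role: 6 of 8 junction, adhesion and surface genes, 9 of 9 transcription factors, 9 of 13 receptors, ligands and signalling genes, 6 of 6 sprouting and guidance genes and 3 of 3 arterial genes.

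The rings came from male Fisher 344 rats of 1 to 2 months, with no genetic change named in the labels. They were kept to day 2 in serum-free medium, and each sample pooled 4 to 6 ring cultures. The groups were collagen control (collagen gel, no TNF), collagen TNF (collagen gel, 10 ng/ml recombinant rat TNF-alpha), fibrin control (fibrin gel, no TNF) and fibrin TNF (fibrin gel, the same TNF dose), with 3 arrays each. TNF is an inflammatory cytokine, collagen is the main protein of connective tissue, and fibrin is the protein mesh of a blood clot. RNA from 200 ng per sample was read on Affymetrix whole-transcript arrays, and all levels below are on a log2 scale, on which a difference of 1 is a doubling. The titles call the replicates biological but do not say whether they came from different animals, so a p-value here is set against the spread of these samples alone. RNA was taken from whole cultures, in which fewer endothelial cells and less RNA per endothelial cell cannot be told apart.

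Endothelial identity rests on transcription factors of the ETS, SOX, KLF and SCL families, which keep junction and receptor genes switched on. In angiogenesis, VEGF selects tip cells that lead a sprout, while Notch signalling holds the cells behind them as stalk cells. Apelin, encoded by Apln, is a secreted peptide made by tip cells, and Aplnr encodes its receptor.

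Most endothelial genes passed no test, and a few moved. The mean level over the 33 genes was 8.11 ± 0.11 in collagen control, 8.12 ± 0.02 in collagen TNF, 8.12 ± 0.10 in fibrin control and 8.05 ± 0.13 in fibrin TNF (SD, n = 3). These group means span 0.07, while arrays of a single group span 0.05 to 0.23, and a mean over genes that moved in both directions can hide their changes. Of the 33 genes, 25 passed the test in none of 5 comparisons, and 8 passed in at least 1. The test was limma's with a Benjamini-Hochberg adjusted p below 0.05 over all 14324 genes. Cldn5 was lower with TNF in both gels and, without TNF, lower in fibrin than in collagen. Clec14a was higher in fibrin with or without TNF. Apln rose with TNF in collagen and was lower in fibrin TNF than in collagen TNF, and the TNF effects in the 2 gels differed by the test of that difference.

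The shares that passed lay near those of all genes. With TNF in collagen, 2 members rose and 1 fell, 9.09% of 33, against 6.37% of all genes (3.27% rose and 3.1% fell). With TNF in fibrin, 1 rose and 1 fell, 6.06% against 3.13% (1.65% rose and 1.47% fell). In fibrin against collagen without TNF, 2 were higher and 1 lower, 9.09% against 10.5% (5.35% higher and 5.19% lower). With TNF in both gels, fibrin lay above collagen for 2 members and below it for 2, 12.1% against 8.19% (4.55% higher and 3.64% lower). The TNF effect differed between gels for 1 member, lower in fibrin, 3.03% against 1.24% (0.37% higher and 0.866% lower). The median log2 difference of the members was 0.0037 with TNF in collagen and -0.053 with TNF in fibrin, against 0.0027 and 0.012 over all genes. Between gels it was -0.027 without TNF and -0.090 with TNF, against -0.0094 and -0.0043 over all genes.

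For members that did not pass, the 95% interval of the difference bounds what could have been missed. All 30 such intervals for TNF in collagen, all 31 for TNF in fibrin and all 30 between gels without TNF lay within 1 log2 unit of 0, and 28 of 29 did between gels with TNF. For the difference of TNF effects, 29 of 32 did. Within 0.5 of 0 lay fewer, 21, 20, 21, 18 and 12 of these intervals in the same order. Differences of about 0.5, near those of several called members, were thus not excluded for the rest. The interval that reached farthest was that of Emcn, a sialomucin of venous and capillary endothelium, at 1.11. Emcn, Aplnr and Robo4 were among the third of genes with the lowest mean level, and the other 30 members were brighter.

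**Figure D1:**
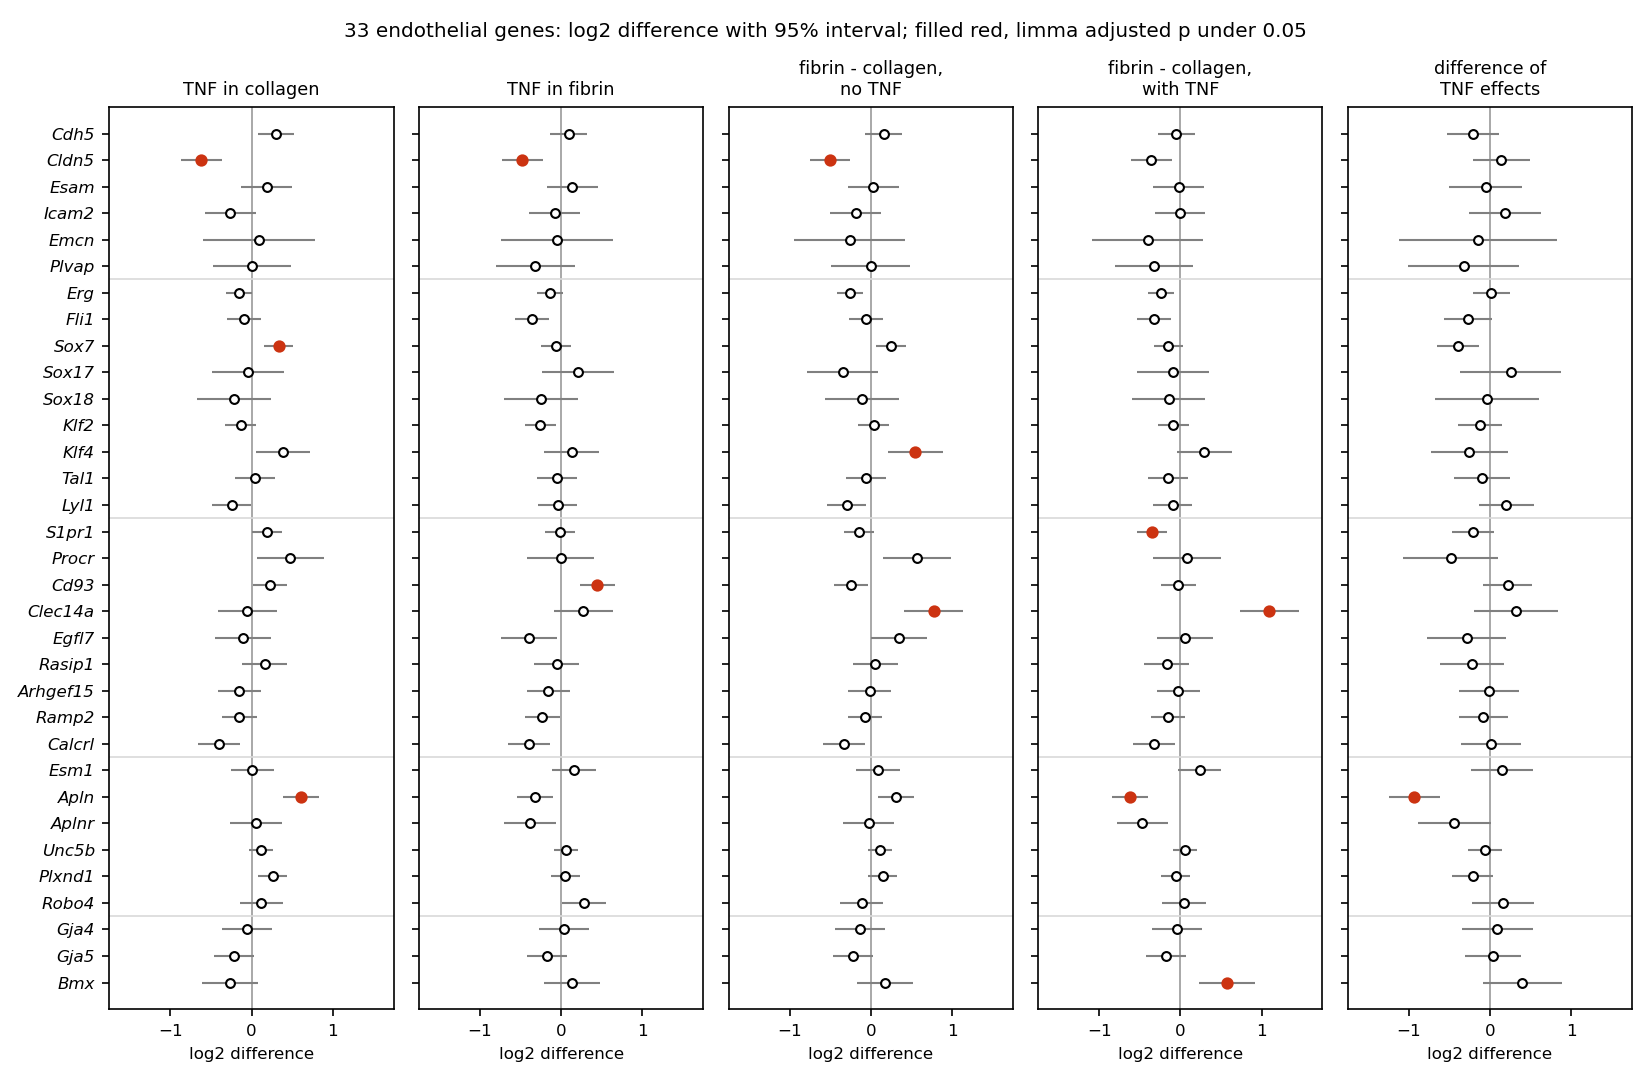
Log2 difference (x axis) of each of 33 endothelial genes (rows, ordered by role) in 5 comparisons, with the 95% interval of the limma fit as a line. Filled red points passed at an adjusted p below 0.05, and they are 3, 2, 3, 4 and 1 of 33 from left to right, while most intervals include 0.

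Among the junction and surface genes, only Cldn5 passed a test. It encodes claudin-5, the tight junction strand protein that limits leakage between endothelial cells. Its level was 9.30, 9.07 and 9.17 in collagen control and 8.68, 8.51 and 8.49 in collagen TNF. In fibrin it was 8.89, 8.58 and 8.56 without TNF and 8.42, 8.04 and 8.15 with TNF. Collagen control arrays were the highest and fibrin TNF arrays the lowest, and within each gel the TNF arrays all lay below the controls. TNF lowered Cldn5 in collagen by 0.62 ± 0.12 (SE), a 1.53-fold fall (limma adjusted p = 0.0058), and this call held in every alternative tried. In fibrin it fell by 0.48 ± 0.12 (adjusted p = 0.0437), a call near the threshold. That call was lost with only the fibrin arrays in the fit (adjusted p = 0.134), with arrays centred on the mean of the members (0.0959), and on leaving out each array in turn other than collagen control 1 and fibrin TNF 1, where adjusted p ran from 0.0519 to 0.136. The TNF effects in the 2 gels differed by 0.14 (adjusted p = 0.786). Without TNF, Cldn5 was lower in fibrin than in collagen by 0.50 ± 0.12 (adjusted p = 0.014), a call lost without collagen control 1 (0.0551), fibrin control 2 (0.0597) or fibrin control 3 (0.0565). With TNF the gap between gels was -0.36 ± 0.12 and did not pass (adjusted p = 0.0823). It passed with the replicate number as a block (0.0064), with a trended and robust prior (0.04) and without fibrin TNF 1 (0.0343). It also passed without the third of genes with the lowest mean level (0.0491).

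The promoter of Cldn5 is shown as that of the only member that passed as lower with TNF. It runs from 250 bases before to 50 after the start of the gene in RefSeq's GRCr8 annotation, chr11:95718549-95718848 on the minus strand, printed 5′ to 3′ in the direction of the gene, with no capitals since none of the 5 motifs searched (given with the Apln promoter) has a match.
Cldn5: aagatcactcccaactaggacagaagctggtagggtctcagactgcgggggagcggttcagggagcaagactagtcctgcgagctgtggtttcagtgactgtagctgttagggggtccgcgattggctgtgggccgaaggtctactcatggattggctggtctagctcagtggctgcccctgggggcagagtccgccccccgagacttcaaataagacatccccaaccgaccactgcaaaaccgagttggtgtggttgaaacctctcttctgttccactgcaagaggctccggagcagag
Its GC content is 57.7%.

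The other junction and surface genes passed no test. Cdh5, which encodes VE-cadherin, the adhesion protein of endothelial junctions, had a mean of 7.91 ± 0.16 in collagen control and 8.22 ± 0.04 in collagen TNF, a difference of 0.30 (adjusted p = 0.119). In fibrin it was 8.07 ± 0.18 and 8.17 ± 0.12 (adjusted p = 0.741). Esam, a junction adhesion molecule, ranged over group means from 9.33 to 9.52, and Icam2, a ligand of leukocyte integrins, from 7.08 to 7.34. Plvap, which forms the diaphragms of fenestrae, was 7.55, 7.56 and 7.55 in the first 3 groups and 7.23 ± 0.38 in fibrin TNF (adjusted p = 0.44 between gels with TNF). Emcn differed by -0.40 between gels with TNF (adjusted p = 0.508), though those groups did not overlap. Its fibrin controls were 4.97, 4.52 and 6.23, and the gap between gels without TNF was -0.26 (adjusted p = 0.678). Without fibrin control 3 that gap was -0.76 (adjusted p = 0.0156).

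Of the transcription factors, Sox7 and Klf4 each passed 1 test, and the other 7 passed none. Sox7, a SOX factor of early endothelium, was 6.96, 6.89 and 6.89 in collagen control and 7.18, 7.29 and 7.27 in collagen TNF. All collagen TNF arrays lay above all collagen controls. The rise was 0.33 ± 0.08 (limma adjusted p = 0.0324). The call was lost with the replicate number as a block (adjusted p = 0.0859), with arrays centred on the mean of the members (0.145), and on leaving out each of the 6 collagen arrays (0.0548 to 0.117). In fibrin, Sox7 was 7.10, 7.07 and 7.32 without TNF and 7.10, 7.23 and 6.98 with it, overlapping groups (adjusted p = 0.795), and the difference between the TNF effects was -0.39 (adjusted p = 0.151).

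Klf4, a flow-induced factor that restrains endothelial inflammation and is also active in smooth muscle and macrophages, was 8.80, 8.99 and 8.96 in collagen control and 9.67, 9.52 and 9.21 in fibrin control. The groups did not overlap, and fibrin was higher by 0.55 ± 0.15 (adjusted p = 0.038). Averaged over its probe sets the difference was 0.70 (adjusted p = 0.00574). The call was lost without any collagen control array (0.0737 to 0.112) and without fibrin control 1 (0.141) or fibrin control 2 (0.106). With TNF, Klf4 was 9.40, 9.44 and 9.06 in collagen and 9.79, 9.74 and 9.26 in fibrin, a difference of 0.30 that did not pass (adjusted p = 0.287).

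Erg, the ETS factor on which many endothelial genes depend, had means of 9.29 ± 0.10 in collagen control, 9.14 ± 0.07 in collagen TNF, 9.04 ± 0.06 in fibrin control and 8.90 ± 0.09 in fibrin TNF. Its highest and lowest groups were those of Cldn5, but no comparison passed, and the nearest was fibrin against collagen without TNF at -0.25 (adjusted p = 0.0507). That gap passed in 6 of 20 alternatives, among them quantile normalization (0.0276), no dim genes (0.0256), a trended and robust prior (0.0236) and the replicate number as a block (0.0456). With TNF the gap of -0.24 (adjusted p = 0.0769) passed in 3, by quantile normalization (0.0308), without dim genes (0.039) and with that prior (0.0388). Fli1, a related ETS factor also found in blood cells, was lowest in fibrin TNF at 7.86 ± 0.10, with -0.36 against fibrin control (adjusted p = 0.0734) and -0.33 against collagen TNF (adjusted p = 0.0585). Both differences passed without dim genes (0.0414 and 0.0327), with a trended and robust prior (0.0363 and 0.0322) and without collagen control 1 (0.0436 and 0.0351). The gap to collagen TNF also passed by quantile normalization (0.0374), with only the TNF arrays in the fit (0.0499) and with the replicate number as a block (0.0318). Sox17, an arterial SOX factor, ranged over group means from 8.08 to 8.43, and Sox18 from 8.07 to 8.42. Klf2, which like Klf4 responds to flow, was 7.97 ± 0.05 in collagen control, 7.84 ± 0.08 in collagen TNF, 8.01 ± 0.08 in fibrin control and 7.75 ± 0.18 in fibrin TNF (adjusted p = 0.48 and 0.158 for TNF). Tal1 and Lyl1, bHLH factors of endothelium and blood, spanned 6.13 to 6.28 and 6.38 to 6.72.

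The receptor and signalling genes gave the largest gap between gels. Clec14a encodes a C-type lectin of the endothelial surface that binds the matrix protein Mmrn2 and is active in sprouting. Its level was 8.10, 7.81 and 7.93 in collagen control and 8.05, 7.81 and 7.82 in collagen TNF. It was 9.11, 8.35 and 8.70 in fibrin control and 9.14, 9.10 and 8.73 in fibrin TNF. All 6 fibrin arrays lay above all 6 collagen arrays, and within each gel the TNF and control arrays overlapped. Fibrin was higher by 0.78 ± 0.17 without TNF (1.71-fold, limma adjusted p = 0.00956) and by 1.10 ± 0.17 with TNF (2.14-fold, adjusted p = 0.00116). Both calls held in every alternative tried. TNF itself gave -0.05 in collagen and 0.27 in fibrin, neither of which passed (adjusted p = 0.929 and 0.491), and the difference of these effects was 0.32 ± 0.24 (adjusted p = 0.623).

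The promoter of Clec14a is shown as that of the member with the largest gap between gels. It lies at chr6:81619507-81619806 on the minus strand (RefSeq, GRCr8), 5′ to 3′ in the direction of the gene. Capitals mark CACGTG, which reads the same on both strands and holds ACGTG on each.
Clec14a: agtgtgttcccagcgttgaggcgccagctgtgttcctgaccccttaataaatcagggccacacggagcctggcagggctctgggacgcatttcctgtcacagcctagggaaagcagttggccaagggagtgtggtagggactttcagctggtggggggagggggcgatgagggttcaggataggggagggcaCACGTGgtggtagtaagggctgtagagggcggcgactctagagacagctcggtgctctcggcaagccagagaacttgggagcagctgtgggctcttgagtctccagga
Its GC content is 60.3%, and no other motif searched has a match in it.

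Cd93, a surface lectin of the same family that is also on monocytes, was 10.29, 10.07 and 10.33 in fibrin control and 10.69, 10.67 and 10.67 in fibrin TNF. The TNF arrays lay above the controls and close together, and the rise was 0.45 ± 0.10 (limma adjusted p = 0.0276). It was lost without fibrin control 2 (0.116) and without each fibrin TNF array (0.0543 to 0.0963). In collagen the groups overlapped, with 10.70, 10.29 and 10.43 against 10.70, 10.73 and 10.67 (difference 0.23, adjusted p = 0.231). Without collagen control 1 that difference was 0.34 and passed (adjusted p = 0.0402). The difference between the TNF effects was 0.22 (adjusted p = 0.557).

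S1pr1, the sphingosine 1-phosphate receptor that tightens junctions and limits sprouting, was 9.09, 9.10 and 9.16 in collagen TNF and 8.63, 8.82 and 8.86 in fibrin TNF. The groups did not overlap, and fibrin was lower by 0.35 ± 0.09 (adjusted p = 0.0252). The call was lost without any collagen TNF array (0.0598 to 0.0957), without fibrin TNF 1 (0.0992), and with arrays centred on the mean of the members (0.262). Without TNF it was 9.05, 8.98 and 8.75 in collagen and 8.80, 8.78 and 8.78 in fibrin, which overlap (adjusted p = 0.352). Its sister receptor S1pr2, which acts against it on junctions and is not a member, rose with TNF in collagen by 0.45 (adjusted p = 0.00387) and was higher in fibrin than in collagen without TNF by 0.37 (adjusted p = 0.00993).

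Calcrl and Ramp2 encode the parts of the adrenomedullin receptor. Calcrl was 8.88 ± 0.28 in collagen control, 8.48 ± 0.07 in collagen TNF, 8.55 ± 0.11 in fibrin control and 8.16 ± 0.12 in fibrin TNF. Its TNF differences were -0.40 in collagen (adjusted p = 0.0722) and -0.39 in fibrin (adjusted p = 0.116), and neither passed. With the replicate number as a block both passed, at adjusted p = 0.027 and 0.0447. The collagen difference also passed without dim genes (0.043), with a trended and robust prior (0.0334) and without collagen control 3 (0.0228). The fibrin difference also passed without collagen control 1 (0.0362). Ramp2 spanned only 9.79 to 10.09 over the group means, with no test passed. Around this receptor, the ligand gene Adm rose with TNF in collagen by 1.49 ± 0.17 (adjusted p = 1.46e-04), from 7.97 ± 0.34 to 9.46 ± 0.27. In fibrin its TNF difference was 0.67 (adjusted p = 0.0526, or 0.0254 with the replicate number as a block), and the difference between the TNF effects did not pass (-0.82, adjusted p = 0.14). Adm was also higher in fibrin control than in collagen control by 0.86 (adjusted p = 0.00541). Ramp1, which pairs with Calcrl to form the receptor for CGRP, was lower with TNF in collagen and fibrin by 0.48 and 0.56 (adjusted p = 0.0237 and 0.0161), and lower in fibrin by 0.60 without and 0.69 with TNF (adjusted p = 0.00377 and 0.00191). Its 2 TNF calls were lost without some single arrays (adjusted p up to 0.103 in collagen and 0.0778 in fibrin) and with arrays centred on the mean of the members (0.075 and 0.0991), and the fibrin call also with only the fibrin arrays in the fit (0.0746).

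The remaining receptor and signalling genes passed no test. Procr, the endothelial protein C receptor, was 8.49 ± 0.15 in collagen control and 8.97 ± 0.26, 9.06 ± 0.35 and 9.05 ± 0.32 in the other 3 groups in the order above. Its differences from collagen control were 0.48 for TNF (adjusted p = 0.193, or 0.0396 with the replicate number as a block) and 0.57 for fibrin (adjusted p = 0.0804). The fibrin difference passed with the replicate number as a block (0.00648) and without fibrin control 3 (0.0398). It also passed with arrays centred on their median (0.0489) or on the mean of the members (0.0373). Egfl7, a secreted protein of vessel tube formation, was 9.54 ± 0.27 in fibrin control and 9.08 to 9.19 in the other groups. Rasip1, a Ras-binding protein needed for vessel lumens, and Arhgef15 spanned 8.14 to 8.31 and 6.90 to 7.07.

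**Figure D2:**
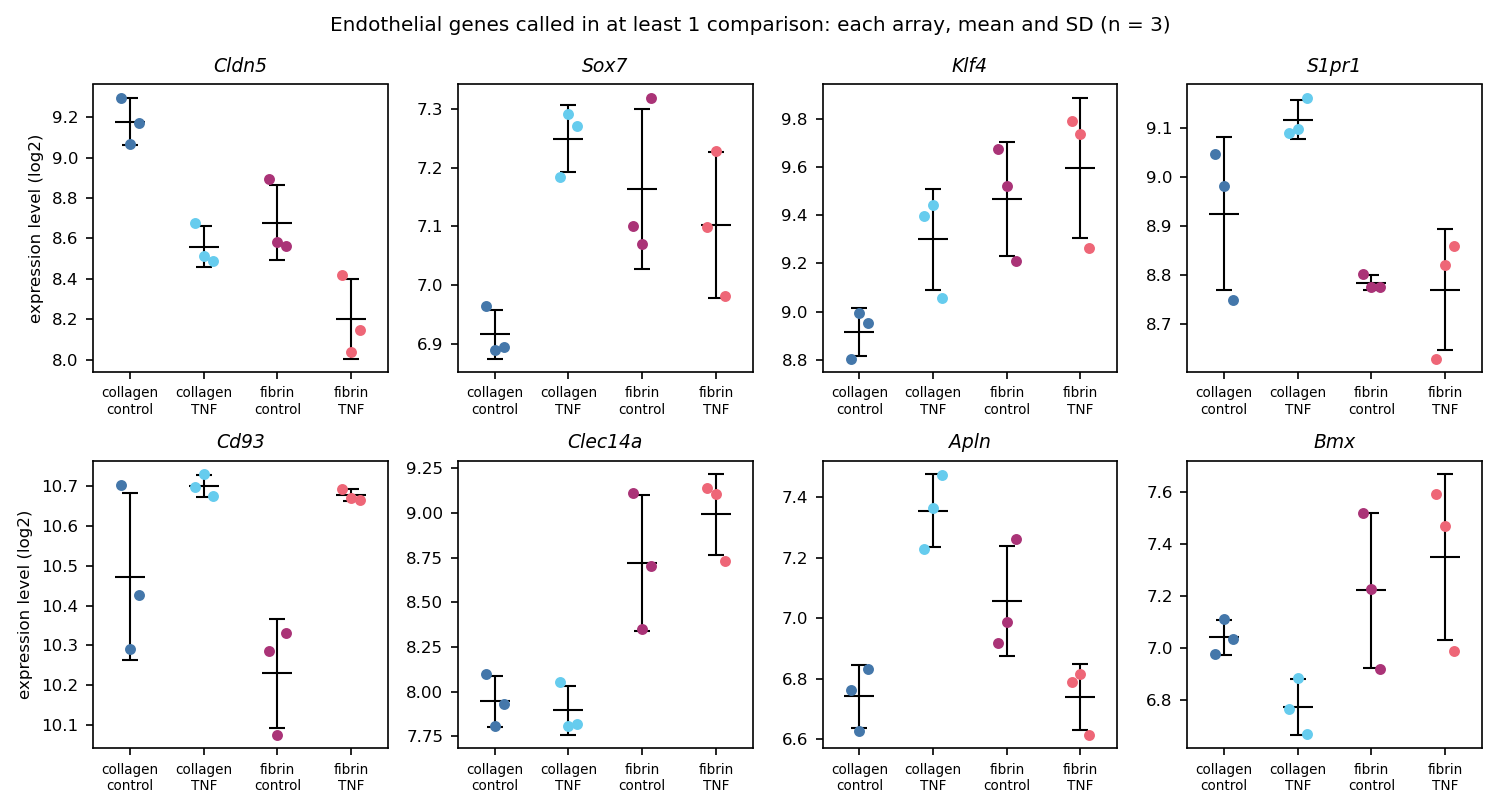
Expression level (y axis, log2, each panel with its own range) of the 8 endothelial genes that passed a test in at least 1 comparison, in the 4 groups (x axis). Points are single arrays and bars the mean and SD (n = 3); all Clec14a fibrin arrays lie above its collagen arrays, and Apln is highest in collagen TNF.

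Among the sprouting and guidance genes, only Apln passed, in 3 comparisons. Its level was 6.76, 6.63 and 6.83 in collagen control and 7.23, 7.36 and 7.47 in collagen TNF. In fibrin it was 6.92, 6.99 and 7.26 without TNF and 6.79, 6.82 and 6.61 with TNF. In collagen all TNF arrays lay above the controls, and in fibrin all TNF arrays lay below them. TNF raised Apln in collagen by 0.61 ± 0.10 (1.53-fold, limma adjusted p = 0.00274). In fibrin the difference was -0.32 ± 0.10 and did not pass (adjusted p = 0.133). The test of the difference between these effects passed, at -0.93 ± 0.14 (adjusted p = 0.00773). Among TNF cultures, Apln was lower in fibrin than in collagen by 0.62 ± 0.10 (adjusted p = 0.00213), while without TNF it was 0.32 ± 0.10 above, which did not pass (adjusted p = 0.0706). That gap without TNF passed with arrays centred on their median (0.0284) and without dim genes (0.042). The 3 calls made in the main fit held in every alternative tried.

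The promoter of Apln is shown as that of the only member that passed the test of the difference between the TNF effects. It lies at chrX:132091197-132091496 on the minus strand (RefSeq, GRCr8), 5′ to 3′ in the direction of the gene, with an ETS and a KLF match in capitals.
Apln: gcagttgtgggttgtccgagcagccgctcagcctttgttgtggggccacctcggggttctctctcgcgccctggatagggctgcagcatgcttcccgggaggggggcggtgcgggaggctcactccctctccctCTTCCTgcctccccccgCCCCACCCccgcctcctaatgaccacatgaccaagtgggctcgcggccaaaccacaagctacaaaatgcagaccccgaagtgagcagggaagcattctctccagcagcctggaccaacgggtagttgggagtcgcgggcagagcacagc
Its GC content is 65.0%. The motifs searched, on both strands, were ETS (AGGAAG), SOX (AACAAT), KLF (CCNCACCC), NF-kB and a hypoxia element (ACGTG). RefSeq windows of this length were given for 20 of the 33 measured members (21 windows). ETS letters were in 11 of the 21 (52.4%) against 34.5% of 33469 windows of all genes, KLF letters in 6 (28.6%) against 15.3%, SOX letters in 3 (14.3%) against 11.7%, NF-kB letters in 1 (4.76%) against 5.37%, and hypoxia letters in 2 (9.52%) against 19.3%. A match describes the letters and was not tested as a binding site.

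The receptor gene Aplnr was among the dim genes, at 4.85 ± 0.04 in collagen control, 4.91 ± 0.24 in collagen TNF, 4.83 ± 0.26 in fibrin control and 4.44 ± 0.22 in fibrin TNF, with no test passed (adjusted p = 0.0736 for the -0.47 between gels with TNF). That gap passed with the replicate number as a block (0.0215) and without fibrin control 3 (0.0424) or fibrin TNF 3 (0.0498). Esm1, a secreted proteoglycan of tip cells, stayed between group means of 9.98 and 10.23. Its TNF differences were 0.01 in collagen (adjusted p = 0.987) and 0.16 in fibrin (adjusted p = 0.602). Of the guidance receptors, Plxnd1, which reads semaphorin signals, was 9.27 ± 0.03 in collagen TNF, 0.26 above collagen control (adjusted p = 0.0869). This rise passed without dim genes (0.0464) and with a trended and robust prior (0.0408). Unc5b, a netrin receptor of tip cells, spanned 7.25 to 7.42, and Robo4, a stabiliser of vessels that was dim here, spanned 4.87 to 5.15.

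The other sprouting and tip cell genes, a list of 30 with 23 measured, gave 5 that rose and 0 that fell with TNF in collagen by limma's test (unadjusted p below 0.05 for 10 higher and 1 lower), 21.7% against 6.37% of all genes. With the replicate number as a block it was 4, since Nid2 no longer passed (adjusted p = 0.0999). With TNF in fibrin 0 rose and 1 fell, 4.35% against 3.13% (unadjusted, 1 higher and 8 lower), and in the blocked fit 1 rose and 3 fell. Between gels with TNF, 0 were higher and 4 lower in fibrin, 17.4% against 8.19% (unadjusted, 0 and 9). The TNF effects differed for 3, each lower in fibrin, 13% against 1.24% (unadjusted, 11 lower and 0 higher). Those 3 were Dll4, the Notch ligand of tip cells, Nid2, a basement membrane protein, and Igfbp3, which binds insulin-like growth factors.

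Dll4 was 8.07, 7.88 and 7.92 in collagen control and 8.19, 8.46 and 8.34 in collagen TNF. In fibrin it was 7.94, 7.84 and 8.09 without TNF and 7.55, 7.78 and 7.44 with TNF. As for Apln, the TNF arrays lay above the controls in collagen and below them in fibrin. Neither TNF difference passed alone (0.38, adjusted p = 0.0521, and -0.37, adjusted p = 0.087), while the difference between them was -0.74 ± 0.15 (adjusted p = 0.0276). With the replicate number as a block this became adjusted p = 0.0952, and without single arrays it ran up to 0.0778. With arrays centred on the mean of the members it was 0.0619. Igfbp3 fell with TNF in fibrin by 0.76 (adjusted p = 0.00487), with 0.17 in collagen (adjusted p = 0.539). For Igfbp3 and Nid2 the differences of the TNF effects were -0.92 ± 0.18 (adjusted p = 0.0235, blocked 0.072) and -0.93 ± 0.20 (adjusted p = 0.0491, blocked 0.12). Both calls were also lost without some single arrays, where adjusted p ran up to 0.068 and 0.121. In the blocked fit 0 of the 23 genes passed for the difference of effects.

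**Figure D3:**
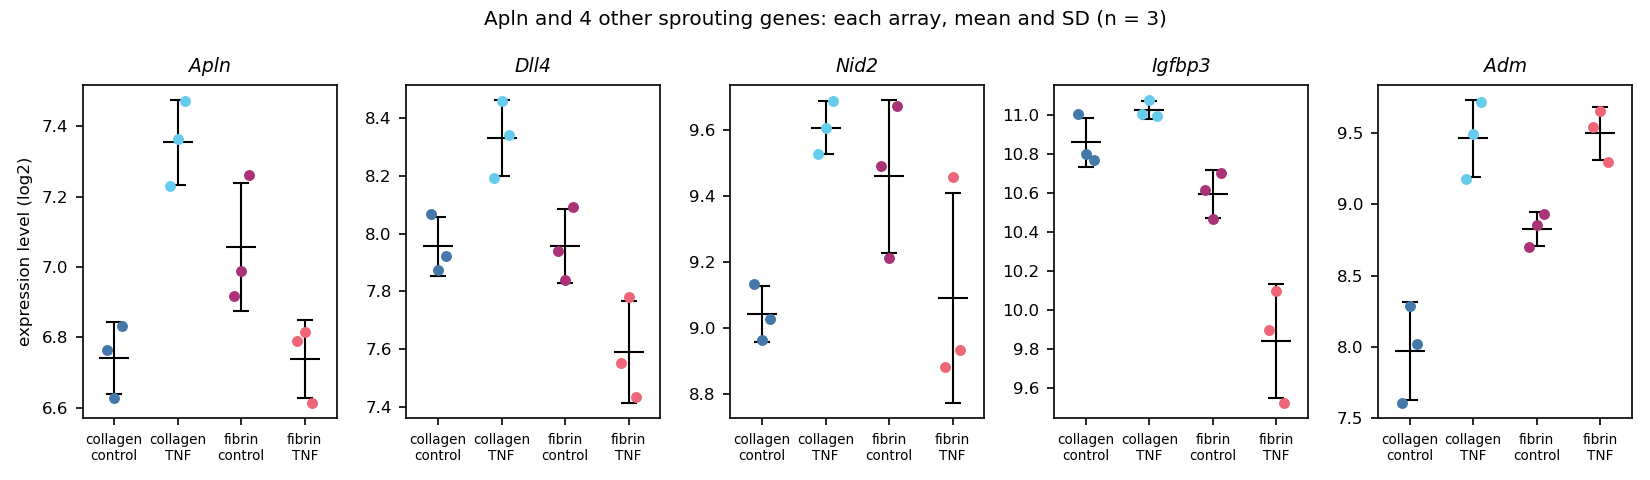
Expression level (y axis, log2, each panel with its own range) of Apln and 4 other sprouting genes in the 4 groups (x axis). Points are single arrays and bars the mean and SD (n = 3); Apln and Dll4 lie higher with TNF in collagen and lower with TNF in fibrin, while Adm is lowest in collagen control.

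Of the arterial genes, Bmx passed 1 test. It encodes a Tec family kinase of arterial endothelium and endocardium, and was 6.77, 6.88 and 6.67 in collagen TNF and 7.59, 7.47 and 6.99 in fibrin TNF. The groups did not overlap, and fibrin was higher by 0.58 ± 0.16 (limma adjusted p = 0.0429). The call was lost with only the 6 TNF arrays in the fit (0.0596) and without 9 of the 12 arrays in turn (0.0536 to 0.16). Without TNF, Bmx was 6.98, 7.11 and 7.04 in collagen and 7.52, 7.23 and 6.92 in fibrin, which overlap (adjusted p = 0.542). The gap junction genes Gja5 and Gja4, for connexins of arterial endothelium, spanned 10.34 to 10.73 and 9.59 to 9.72, with no test passed.

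Of a list of 50 other endothelial genes, 41 were measured. In fibrin against collagen without TNF 2 were higher and 9 lower (26.8%, against 10.5% of all genes), and with TNF 1 was higher and 9 lower (24.4%, against 8.19%). Centring each array on its median reduced the lower counts to 5 and 6. Some genes are in both this list and the sprouting and tip cell list. Nrp1 and Cd34 without TNF, and Nrp1 and Dll4 with TNF, count in both as lower in fibrin. Tspan7, a tetraspanin, was lower in fibrin by 0.87 without TNF (adjusted p = 1.66e-04) and 0.95 with TNF (adjusted p = 1.05e-04). Ace, angiotensin converting enzyme, was lower by 0.68 without TNF (adjusted p = 0.00118), and Thbd, thrombomodulin, which activates protein C together with the receptor encoded by Procr, was higher by 0.76 and 0.95 (adjusted p = 0.00864 and 0.00262). With TNF, 1 of the 41 rose and 4 fell in collagen and 1 rose and 1 fell in fibrin, or 12.2% and 4.88%. These counts describe the lists and were not tested against the members.

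Markers of other cells also differed between the gels. Of 10 measured macrophage markers, 6 were lower in fibrin both without and with TNF and 0 were higher. By limma's unadjusted p below 0.05, 2 were higher and 6 lower without TNF, and 1 higher and 7 lower with TNF. Their differences ran from -2.19 to 0.52 without TNF and from -2.70 to 0.50 with TNF. Their mean level per array was 9.35 to 9.64 and 9.35 to 9.74 in collagen control and collagen TNF against 8.71 to 9.01 and 8.56 to 8.82 in fibrin control and fibrin TNF. The scavenger receptor Cd163 was 8.53 in collagen control and 6.34 in fibrin control (-2.19, adjusted p = 8.59e-05). These macrophage shares were 60% each, against 10.5% and 8.19% of all genes. Of 10 smooth muscle markers, 5 were lower in fibrin without TNF (50%, against 10.5%) and 4 fell with TNF in collagen (40%, against 6.37%), Tagln by 0.83 (adjusted p = 0.00758). With TNF in fibrin, and between gels with TNF, 0 of the 10 passed limma's test (unadjusted p below 0.05 for 1 and 2 lower). Of 9 fibroblast markers, the TNF effects differed between gels for 3, 1 higher and 2 lower in fibrin (33.3%, against 1.24% of all genes). In fibrin 1 was higher and 2 lower without TNF, and 0 higher and 3 lower with TNF (33.3% each, against 10.5% and 8.19%). With TNF 2 rose and 2 fell in collagen (44.4%, against 6.37%), and 0 rose and 2 fell in fibrin (22.2%, against 3.13%). Of 6 pericyte markers, 1 was lower with TNF in each gel, and 1 in fibrin both without and with TNF (16.7% each). The TNF effects differed for 0 of 6 pericyte markers (unadjusted, 0 higher and 4 lower). They also differed for 0 of the macrophage markers (unadjusted, 0 higher and 3 lower) and 0 of the smooth muscle markers (4 higher and 0 lower). Of 6 lymphatic endothelial markers, 3 rose with TNF in collagen (50%, against 6.37%), among them Pdpn and Reln (unadjusted, 3 higher and 1 lower). The lowest difference there was -0.52. With TNF in fibrin 0 passed (unadjusted, 2 higher and 1 lower). Between gels 1 was higher and 1 lower in fibrin without TNF and 3 were lower with TNF, and the TNF effects differed for 1. Dim genes made up 2 of these 6. Prox1, the factor that defines that lineage, was dim, between group means of 3.81 and 4.08, and passed no test. Of 10 lymphocyte and neutrophil markers 8 were dim, 2 were higher in fibrin without TNF (20%, against 10.5%) and 1 with TNF (10%, against 8.19%), and their mean level was 4.59 to 4.76 in collagen and 4.74 to 4.96 in fibrin. The 11 measured members known also from blood cells gave 0 calls with TNF in collagen by limma (unadjusted p below 0.05 for 5 higher and 1 lower), 1 higher with TNF in fibrin (9.09%, against 3.13% of all genes), 1 higher in fibrin without TNF (9.09%, against 10.5%), and 1 higher and 1 lower in fibrin with TNF (18.2%, against 8.19%). The part of these other cells in the members' differences was not tested.

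**Figure D4:**
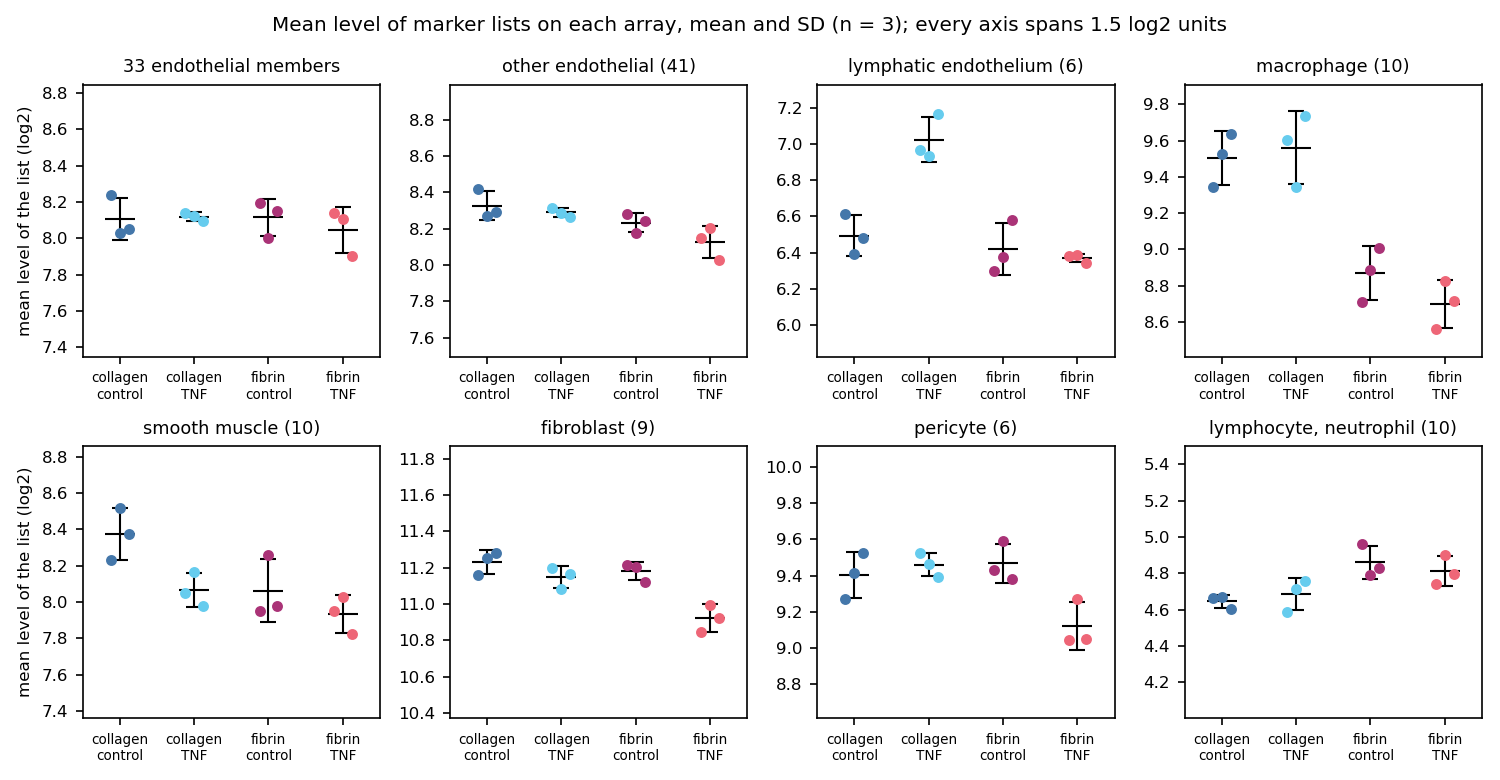
Mean log2 level (y axis) of the 33 endothelial members and of 7 marker lists on each array, in the 4 groups (x axis), with the mean and SD (n = 3) and axes of equal span. The members lie between 7.90 and 8.24 on all arrays, while the macrophage list is lower in fibrin.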

How the data were processed

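Whole cultures of rat aortic rings were measured on 12 arrays, 3 in each of 4 groups taken from the sample titles. The authors deposited a table of 27342 probe sets, read here as log2 values from their range of 1.44 to 14.07, since scale and normalization are not given in the sources used here. Limma is named in the submitters' processing notes. Array medians were 5.94 to 5.98 in collagen and 5.89 to 5.93 in fibrin. Of the probe sets, 15097 name 1 gene, 323 several and 11922 none, per the array annotation. The probe set of highest mean stood for each of 14324 genes (499 had more than 1). Symbols were checked in RefSeq (GRCr8), where 15067 probe sets had their gene identifier.

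Group differences came from limma 3.58.1 under R 4.3.3 (lmFit and eBayes on all 12 arrays, with 1 mean per group and two-sided tests, Benjamini-Hochberg over all genes within a comparison, threshold 0.05) and the fit was tested on simulated data. Errors are standard errors of the fit for differences and SDs for levels; the number of arrays limits the precision. Labels give no batch, so none could be tested. Same-numbered arrays deviated together within a gel (correlations 0.13, 0.14 and 0.14 in collagen and 0.25, 0.14 and 0.16 in fibrin). The main fit, from which calls, counts and adjusted p-values come unless a block is named, did not pair them. Pairing by replicate number entered only as an alternative, the block. The blocked value is given where it changes the call of a TNF effect, or of a member's gap between gels, that the text states. Alternatives were quantile normalization, median centring, no dim genes, averaged probe sets, a trended and robust prior, only the groups compared, the block, each array left out and, chosen after the data were seen, centring on the members. Any measured member could be named, from each other list up to 4 genes of smallest adjusted p per comparison and 2 others, and partners beside the member they act with. The members and lists were chosen with earlier results of these data known. Genes named as not analysed here were left out.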

Additional observations from a re-analysis of the deposited data

Results flagged for a closer look

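The TNF effect differed between fibrin and collagen, by the test of the difference itself, for 5 genes among the members and their pathway lists. Apln is the member, with -0.93 ± 0.14 on the log2 scale (limma adjusted p = 0.00773). Angpt1, which encodes angiopoietin-1, the vessel-stabilising ligand of Tie2, had -1.78 (adjusted p = 4.34e-04), from a TNF difference of 2.30 in collagen and 0.52 in fibrin. Dll4 had -0.74, Igfbp3 -0.92 and Nid2 -0.93, all 3 of which no longer passed with the replicate number as a block.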

How the results depend on the processing

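Of 13 calls among the members over the 5 comparisons, 6 held in every alternative, 7 were lost in some, and 17 were gained in some; 0 reversed. The counts of members that passed were 3 (TNF in collagen), 2 (TNF in fibrin), 3 (fibrin against collagen without TNF), 4 (the same with TNF) and 1 (difference of TNF effects). Without dim genes they were 5 for TNF in collagen, 6 between gels without TNF and 7 with TNF, where fewer genes were tested. A trended and robust prior gave 5 for TNF in collagen and 7 between gels with TNF. Only the groups compared gave 1 for TNF in fibrin, as did centring on the members. Median centring gave 6 between gels without TNF, 5 higher and 1 lower, against 2 and 1. The replicate block gave 6 between gels without TNF, 8 with TNF, and 4, 3 and 1 in the other comparisons. Same-numbered arrays of different gels correlated at 0.23, 0.08 and 0.13 without TNF and 0.05, 0.03 and 0.14 with TNF, all positive. Whether a number marks a shared source across gels is not given in the labels and was not tested. Quantile normalization gave 2 higher and 2 lower without TNF and 2 higher and 4 lower with TNF. Centring on the members gave 3 higher and 1 lower without TNF, 2 and 1 with TNF, and 1 and 1 for TNF in collagen. Leaving out 1 array gave 2 to 3, 0 to 4, 1 to 4, 2 to 5 and 1 in the order above. For TNF in fibrin the count was 0 without fibrin control 2, fibrin TNF 2 or fibrin TNF 3, and 4 without collagen control 1. Between gels it was 1 without collagen control 1 or fibrin control 2 (no TNF), and 2 without any collagen TNF array (with TNF). The cause of these changes was not tested. Signal over background is unknown, so low levels such as those of Aplnr, Robo4 and Emcn may hide differences.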
